A study of Mus musculus with 12 samples.

Results

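The Iroquois (Irx) and sine oculis homeobox genes described here are 9 of the 55536 mouse genes to which the reads of the 12 libraries were assigned, and they were chosen by symbol: Irx1, Irx2, Irx3, Irx4, Irx5, Irx6, Six2, Six3 and Six6. The libraries are bulk RNA-seq of primary oligodendrocyte precursor cells (OPCs), the dividing cells that give rise to myelinating oligodendrocytes, in 4 groups of 3 replicates. Ctr cells were untreated. EZH2i cells received EPZ011989, a small-molecule inhibitor of the methyltransferase EZH2, for 4 days (1.5 μM, renewed every 48 h). IFN-γ cells received 100 ng/ml of the cytokine interferon-γ for 6 h, and the cells of the fourth group (IFN-γ with EZH2i) received the inhibitor for 4 days and then IFN-γ together with fresh inhibitor. All groups share the source: brains of several pups of postnatal days 4 to 6 were pooled, the replicates came from different litters, and the cells were grown in a proliferation medium with PDGFaa and bFGF. The labels name the cells Sox10GFP+ OPCs. The mouse line of the study is Sox10:Cre-RCE:LoxP (EGFP), in which Cre driven by Sox10 marks the whole oligodendrocyte lineage and not OPCs alone, and its protocol allows selection on GFP or on CD140a. The labels also carry EAE as the mouse model of every sample, although the protocol describes pups and no immunization.

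Irx proteins are transcription factors with a homeodomain of the TALE type, and they pattern the neural tube, heart, limb and retina. Their genes lie in the mouse genome as a pair of clusters: Irx1, Irx2 and Irx4 form the IrxA cluster and Irx3, Irx5 and Irx6 the IrxB cluster. The sine oculis homeobox proteins, named after a fly eye gene, carry a conserved cofactor-binding domain beside a homeodomain. Six3 and Six6 are needed for forebrain and eye development, and Six2 keeps nephron progenitors in the kidney undifferentiated. EZH2 is the catalytic subunit of Polycomb repressive complex 2 (PRC2), which puts the repressive trimethyl mark on lysine 27 of histone H3, and homeobox genes with CG-rich promoters are among its best known targets. The comparisons ask how the level of each gene differed with EZH2i, without and with IFN-γ, and with IFN-γ.

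Positions are those of GRCm38. The IrxA cluster is on chromosome 13, with Irx1 (71957921 to 71963723, minus strand), Irx2 (72628820 to 72634198, plus strand) and Irx4 (73260479 to 73269608, plus strand) separated by 665.1 and 626.3 kb. The IrxB cluster is on chromosome 8, with Irx3 (91798525 to 91802067, minus strand), Irx5 (92357625 to 92376286, plus strand) and Irx6 (92674288 to 92680956, plus strand) separated by 555.6 and 298.0 kb. Six3 (85613608 to 85629302, plus strand) and Six2 (85684277 to 85688274, minus strand) lie 55.0 kb apart on chromosome 17. Six6 (72939892 to 72944899, plus strand) is on chromosome 12, 154.7 kb from Six4.

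RefSeq promoter windows (GRCm38.p6, from 250 bases before to 50 after the transcription start) were found for 6 of the 9 genes: Irx2, Irx3, Irx4, Six2, Six3 and Six6. No window was matched for Irx1, Irx5 and Irx6. The windows of Irx2 (chr13:72628570-72628869 on the plus strand), Irx3 (chr8:91801605-91801904 on the minus strand), Six2 (chr17:85688205-85688504 on the minus strand) and Six3 (chr17:85620584-85620883 on the plus strand) are shown because the fitted changes of these 4 genes with EZH2i differ. Only Irx2 passed the threshold in the main test described below. Whether the number of CG goes with the change was not tested, and the windows were picked with the values known. They are written 5′ to 3′ along the strand of the gene, with each CG dinucleotide in capitals.
Irx2: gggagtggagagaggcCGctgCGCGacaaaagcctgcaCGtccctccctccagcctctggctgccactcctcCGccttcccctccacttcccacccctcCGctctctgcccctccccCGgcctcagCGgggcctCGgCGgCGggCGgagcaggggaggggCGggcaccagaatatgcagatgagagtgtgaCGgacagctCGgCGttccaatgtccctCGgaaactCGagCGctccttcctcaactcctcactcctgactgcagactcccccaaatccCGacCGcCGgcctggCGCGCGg
Irx3: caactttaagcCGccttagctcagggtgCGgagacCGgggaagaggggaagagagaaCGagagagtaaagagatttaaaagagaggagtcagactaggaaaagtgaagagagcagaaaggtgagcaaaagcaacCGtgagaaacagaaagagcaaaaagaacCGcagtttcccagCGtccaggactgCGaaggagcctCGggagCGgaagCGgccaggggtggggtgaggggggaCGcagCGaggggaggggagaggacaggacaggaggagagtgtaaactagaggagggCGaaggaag
Six2: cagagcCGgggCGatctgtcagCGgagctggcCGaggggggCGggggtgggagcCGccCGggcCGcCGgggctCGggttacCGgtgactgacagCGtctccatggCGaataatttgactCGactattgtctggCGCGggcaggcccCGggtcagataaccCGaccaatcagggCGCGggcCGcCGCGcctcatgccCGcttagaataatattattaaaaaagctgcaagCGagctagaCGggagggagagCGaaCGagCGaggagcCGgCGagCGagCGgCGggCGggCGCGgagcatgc
Six3: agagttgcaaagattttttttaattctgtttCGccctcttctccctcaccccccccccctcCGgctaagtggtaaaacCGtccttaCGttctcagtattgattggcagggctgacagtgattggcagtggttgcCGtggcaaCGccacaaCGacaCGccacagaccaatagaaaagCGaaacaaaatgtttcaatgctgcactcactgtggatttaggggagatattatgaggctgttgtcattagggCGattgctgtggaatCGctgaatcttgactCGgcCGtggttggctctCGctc
CG reads the same on both strands. It occurs 25 times in the Irx2 window, 14 times in that of Irx3, 37 times in that of Six2 and 14 times in that of Six3, against 31 for Irx4 and 20 for Six6. The median of all 32851 windows of the same length is 7, so each of the 6 lies above it. The share of windows with fewer CG was 94.4% for Six2, 89.4% for Irx4, 81.6% for Irx2 and 73.5% for Six6. For Irx3 and for Six3 it was 63.7%. The letters TATAAA, searched on both strands, were in none of the 6 windows and in 13.6% of all windows.

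The levels below are CPM, counts scaled to the library total, after scaling with TMM factors, which is the scale for comparing 1 gene between libraries. Total counts per library were between 17403896 and 66546017 with a median of 33625880, and the shallowest library was Ctr replicate 2. Replicates of a group differed by far more than counting noise (chi-square per gene 35.64 to 190.2). Markers of OPCs (Pdgfra, Cspg4, Sox10, Olig1, Olig2, Ptprz1 and Gpr17) summed to 8110 to 8380 CPM in Ctr and 6700 to 7100 in EZH2i, and to 5290 to 7130 in IFN-γ and 4300 to 5200 with both. The sum was thus lower with EZH2i at both IFN-γ levels without overlap, while each of the 7 markers had an adjusted p of 0.132 or more for the mean effect in edgeR. The part of this shift in the changes below was not tested. The skeletal muscle markers Myf5 and Myog, the retinal marker Rax and the microglial marker Aif1 had 3 counts or fewer in every library. Other genes of the same lists did not stay that low. Lhx2, listed with Rax, was at 14.6 to 40.5 CPM, P2ry12, listed with Aif1, at 0.39 to 1.34 CPM, and Myod1 at up to 0.174 CPM. In bulk RNA, fewer cells that express a gene and less RNA per cell cannot be told apart.

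Between genes, levels were compared as TPM, which accounts for transcript length, within a group. In Ctr the order was Irx1 (11.9 ± 1.32 TPM, SD, n = 3), Irx2 (3.91 ± 0.293 TPM), Irx3 (1.12 ± 0.0312 TPM), Irx5 (1.03 ± 0.217 TPM) and Six3 (0.576 ± 0.357 TPM). Irx6, Six2, Six6 and Irx4 were at 0.016 TPM or less. Irx3 and Irx5 differed by less than the spread of Irx5, and the libraries of Irx5 and Six3 overlapped, while Irx1 and Irx2 were each separated from their neighbours in the order. In EZH2i, Irx5 (2.58 ± 1.22 TPM) stood above Irx3 (1.86 ± 0.724 TPM), and with IFN-γ and EZH2i, Irx2 (9.52 ± 3.07 TPM) stood above Irx1 (9.09 ± 3.94 TPM). Each of these pairs differed by less than the SD between libraries. Within libraries, Irx5 was above Irx3 in every EZH2i replicate (3.98 against 2.70, 1.96 against 1.43 and 1.79 against 1.46 TPM). With both agents, Irx2 was above Irx1 only in replicate 3 (6.64 against 5.07 TPM). Six2 reached 0.240 ± 0.151 TPM in EZH2i, near Six3 at 0.334 ± 0.0631 TPM.

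Irx2 rose with EZH2i, with fitted changes of similar size without and with IFN-γ. It was the only member past the threshold in the group-only edgeR test of the mean EZH2i effect, which averages the difference between EZH2i and Ctr and the difference between IFN-γ with EZH2i and IFN-γ. Irx5, Irx3 and Irx1 had positive fitted changes and Six3 a negative one, none past the threshold. Six2 and Irx4 were near 0 counts in Ctr. Six2 had more reads in EZH2i than in Ctr, whereas Irx4 rose above 3 counts only in libraries with both IFN-γ and EZH2i. Of the 9 genes, 6 passed the filter on low counts (Irx1, Irx2, Irx3, Irx5, Six2 and Six3) and could be tested with all other genes. Irx4, Irx6 and Six6 did not pass it. In the separate comparisons without and with IFN-γ, 0 of the 6 passed the group-only edgeR test, which called 0.405% and 0.353% of all genes. An unadjusted p under 0.05 was found for 3 and 1 of the 6, beside 7.04% and 6.42% of all genes.

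**Figure D1:**
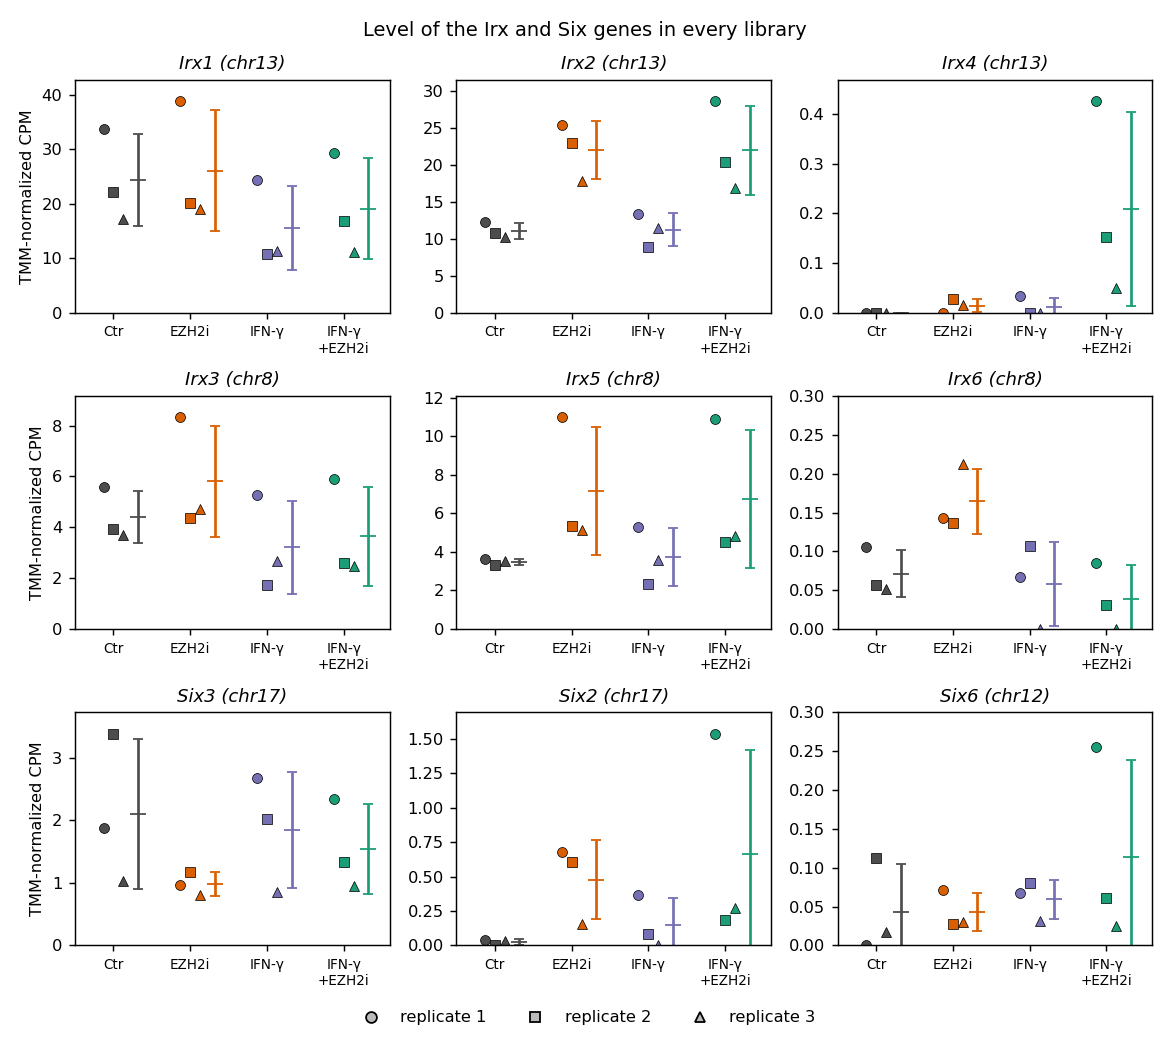
TMM-normalized CPM of the 9 genes (y axis, a separate scale for each gene, starting at 0) in the 12 libraries by group (x axis), with a point per library shaped by replicate number and the mean ± SD of 3 replicates beside it. For Irx2 the 6 libraries with EZH2i, between 16.9 and 28.7 CPM, lie above the 6 without it, between 8.90 and 13.4 CPM, whereas the Irx1 groups overlap.

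Irx2 was measured in replicates 1, 2 and 3 at 12.3, 10.8 and 10.2 CPM in Ctr and at 25.5, 23.0 and 17.8 CPM in EZH2i. In IFN-γ it was at 13.4, 8.90 and 11.5 CPM, and in IFN-γ with EZH2i at 28.7, 20.4 and 16.9 CPM. Every library with EZH2i was therefore above every library without it, a separation that 1.44% of the 18995 genes tested showed. The log2 fold change was 0.99 (SE 0.22) in EZH2i versus Ctr and 0.96 (SE 0.22) in IFN-γ with EZH2i versus IFN-γ, and the quasi-likelihood test of edgeR gave Benjamini-Hochberg adjusted p = 0.101 and 0.131. The mean effect was 0.98 (SE 0.16) with adjusted p = 0.00682 in the same edgeR test, which called 2.22% of all genes in either direction and 2.03% as higher. Leaving out any single library kept this edgeR adjusted p between 0.00573 and 0.0283. In the separate comparisons Irx2 passed the threshold only with DESeq2 (adjusted p = 0.00592 and 0.00785) or with the replicate number as a block in edgeR (adjusted p = 0.00229 and 0.00282). DESeq2 called 1.74% and 1.48% of all genes there, and the block 4.06% and 3.94%. The block applies the replicate numbers to Ctr as well, where they do not clearly pair the libraries. This holds for every blocked value of the mean EZH2i effect too. Salmon assigned 87.4% of the Irx2 counts to its longest transcript (2625 bases), 88.5% without EZH2i and 86.8% with it.

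Irx1, the first gene of the same cluster and the most abundant of the 9 by mean TPM, showed no change past the threshold with EZH2i. Its levels were 33.7, 22.2 and 17.2 CPM in Ctr and 38.9, 20.2 and 19.1 CPM in EZH2i. With IFN-γ they were 24.4, 10.7 and 11.4 CPM, and with IFN-γ and EZH2i 29.3, 16.8 and 11.2 CPM. The groups with and without EZH2i overlapped at both IFN-γ levels, and the library numbered 1 was the highest in each of the 4 groups. The mean EZH2i effect was 0.20 (SE 0.30) on the log2 scale, with adjusted p = 0.879 in edgeR, and it passed in none of the 17 alternatives.

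Because libraries numbered 1 were the highest in all 4 groups for Irx1, Irx2, Irx3 and Irx5 alike, the ratio of counts of neighbouring genes within a library was also taken, a measure chosen after the values were seen. In Ctr there were 0.365, 0.489 and 0.597 counts of Irx2 per count of Irx1, and in EZH2i 0.655, 1.14 and 0.932. In IFN-γ the ratios were 0.551, 0.831 and 1.01, and in IFN-γ with EZH2i 0.980, 1.21 and 1.51. EZH2i and Ctr did not overlap, whereas a single IFN-γ library was above the lowest library with both agents. The mean log2 ratio went from -0.72 without to 0.05 with EZH2i, a difference of 0.78. As the pair was chosen for its values, this is a description with no test.

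Irx4, the last gene of the cluster and in mammals chiefly known from the ventricles of the heart, had no count in the 3 Ctr libraries. It had 0, 1 and 1 counts in EZH2i, 1, 0 and 0 in IFN-γ, and 10, 5 and 2 in IFN-γ with EZH2i. Only the last group thus rose above the floor of 3 counts, and in 2 of its 3 libraries. Against the floor of the IFN-γ group this is at least 2.77-fold higher, but without IFN-γ with EZH2i replicate 1 the bound is 1.33-fold. The mean was 0.00558 CPM without and 0.112 CPM with EZH2i (p = 0.020, two-sided exact permutation test over 400 arrangements, 3 genes tested in this way). Without any of Ctr replicates 1, 2 or 3 the exact permutation p was 0.125. The numbers of libraries with and without EZH2i are then unequal, so this p cannot be set directly against that over all 12 libraries. The reads behind the difference are the few in IFN-γ with EZH2i.

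In the IrxB cluster, Irx5 had higher values with EZH2i and Irx3 did so less clearly. Irx5 was at 3.62, 3.33 and 3.55 CPM in Ctr and at 11.0, 5.34 and 5.13 CPM in EZH2i. In IFN-γ it was at 5.29, 2.34 and 3.59 CPM and in IFN-γ with EZH2i at 10.9, 4.53 and 4.82 CPM. EZH2i lay wholly above Ctr, which 7.37% of all genes did, while in the presence of IFN-γ the groups overlapped, with IFN-γ replicate 1 above 2 of the 3 libraries with both agents. By replicate number, which was taken as a pairing there, Irx5 was higher with EZH2i in 3 of 3 pairs, and the replicate block gave 0.80 (SE 0.22, edgeR adjusted p = 0.074). The mean EZH2i effect was 0.94 (SE 0.29), close in size to that of Irx2, with adjusted p = 0.158 in edgeR. It passed with the replicate block in edgeR (adjusted p = 0.00408) and with DESeq2 (adjusted p = 0.0383), which called 12.2% and 4.61% of all genes. Without EZH2i replicate 1 the fitted change in EZH2i versus Ctr was 0.58 instead of 1.03.

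Irx3 was at 5.57, 3.95 and 3.70 CPM in Ctr and at 8.33, 4.38 and 4.74 CPM in EZH2i. With IFN-γ it was at 5.26, 1.73 and 2.67 CPM without and at 5.90, 2.58 and 2.46 CPM with EZH2i. These groups overlapped at both IFN-γ levels, and the mean effect of 0.29 (SE 0.32) had adjusted p = 0.811 in edgeR. The ratio of Irx5 to Irx3 counts, again chosen after the values were seen, was 0.651, 0.844 and 0.959 in Ctr and 1.32, 1.22 and 1.08 in EZH2i. It was 1.01, 1.35 and 1.35 in IFN-γ and 1.85, 1.75 and 1.95 in IFN-γ with EZH2i. At each IFN-γ level all libraries with EZH2i were above all without it, and the mean log2 ratio went from -0.01 to 0.58, a difference of 0.59, again given with no test.

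**Figure D2:**
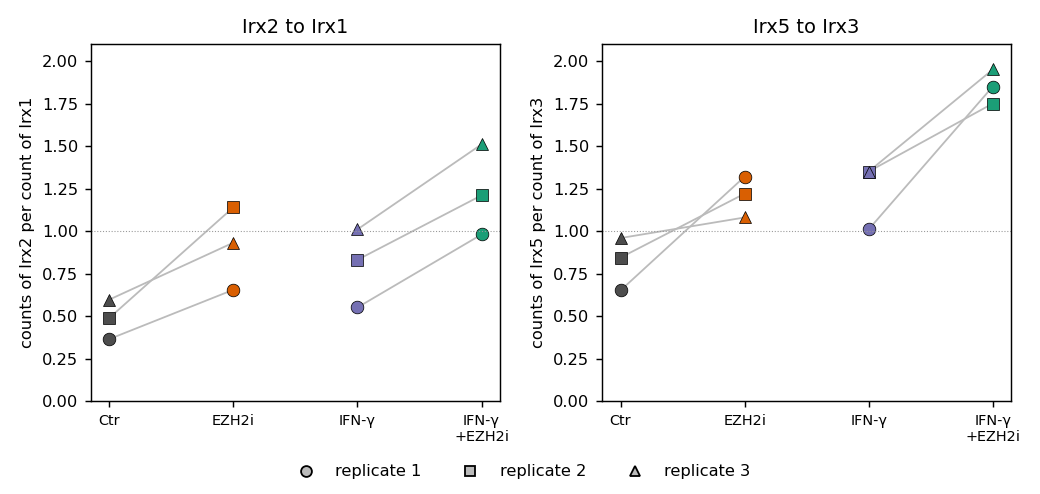
Counts of Irx2 per count of Irx1 (left) and of Irx5 per count of Irx3 (right) in each library (y axis, from 0), by group (x axis), with lines joining libraries of the same number, which are not taken as pairs where Ctr is involved. Each of the lines goes up from the group without to the group with EZH2i, from 0.365 to 0.655 for the lowest Irx2 to Irx1 pair and from 1.35 to 1.95 for the highest Irx5 to Irx3 pair.

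Irx6 stayed near the detection limit, with 3, 1 and 3 counts in Ctr, 4, 5 and 14 in EZH2i, 2, 4 and 0 in IFN-γ and 2, 1 and 0 in IFN-γ with EZH2i. EZH2i was above Ctr in every library and at least 1.51-fold above the Ctr floor, but with IFN-γ the order was not kept. The mean was 0.0645 CPM without and 0.101 CPM with EZH2i, and the exact permutation p was 0.245.

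Six2 had 1, 0 and 2 counts in Ctr and 19, 22 and 10 in EZH2i. It had 11, 3 and 0 counts in IFN-γ and 36, 6 and 11 in IFN-γ with EZH2i. All EZH2i libraries were above all Ctr libraries, as for 7.37% of all genes tested. At 0.478 ± 0.285 CPM, EZH2i was at least 4.39-fold above the Ctr floor. In the presence of IFN-γ the groups overlapped, since IFN-γ replicate 1 held 11 counts and IFN-γ with EZH2i replicate 2 only 6. The fitted mean effect was 3.09 (SE 0.91) with adjusted p = 0.132 in edgeR. It passed with the replicate block in edgeR (adjusted p = 0.00744) and with DESeq2 (adjusted p = 0.0187), which called 12.2% and 4.61% of all genes. Six2 passed the low-count filter only through the libraries in which it was high, so its place among the genes tested depends on the difference itself.

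Six3, the neighbour of Six2, had lower fitted values with EZH2i, none past the threshold. It was at 1.88, 3.39 and 1.03 CPM in Ctr and at 0.965, 1.18 and 0.805 CPM in EZH2i. In IFN-γ it was at 2.68, 2.02 and 0.849 CPM and in IFN-γ with EZH2i at 2.35, 1.34 and 0.944 CPM. These groups overlapped, and the spread within Ctr exceeded the difference. The log2 fold change was -1.07 (SE 0.52) in EZH2i versus Ctr and -0.66 (SE 0.36) for the mean effect, with adjusted p = 0.771 and 0.525 in edgeR. Without Ctr replicate 2 the former was -0.56. Six3os1, a transcript antisense to Six3 whose body overlaps it by 4791 bases, was also highest in Ctr replicate 2 (45.3 CPM, against 13.3 and 12.6 CPM in the other two). Its mean effect was -0.67 (SE 0.36, edgeR adjusted p = 0.516). The strand setting of the counting is not given in the sources used here, so reads of Six3 and Six3os1 cannot be told apart with certainty.

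Six6, an eye field gene, had 0, 2 and 1 counts in Ctr, 2, 1 and 2 in EZH2i, 2, 3 and 2 in IFN-γ and 6, 2 and 1 in IFN-γ with EZH2i. All but a single library were at or under 3 counts, and the exact permutation p was 0.635. A difference in Six6 was not detectable at this depth. The body of Six6 also overlaps that of 4930447C04Rik by 883 bases.

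Among the 6 tested genes, 5 had a higher and 1 a lower fitted mean with EZH2i. Their median log2 fold change was 0.69 in EZH2i versus Ctr and 0.58 with IFN-γ, beside 0.006 and -0.005 over all genes. The count of genes wholly above their reference group was 3 of 6 without IFN-γ (Irx2, Irx5 and Six2), beside 7.37% of all genes, and 1 of 6 with IFN-γ (Irx2), beside 6.08%. Six2 (3.90 and 2.29) entered this set only because some of its libraries were high. Without it, the middle fitted change was that of Irx3 (0.40) without IFN-γ and that of Irx1 (0.30) with it. The members were also chosen with earlier results of these data known. The medians, directions and counts are therefore a description and no test against all genes. The EZH2i effect without IFN-γ did not differ detectably from that with it: the interaction was -0.03 (SE 0.31) for Irx2, -0.18 (SE 0.58) for Irx5 and -1.61 (SE 1.88) for Six2. No gene at all was called for the interaction by edgeR or DESeq2 (0.0%), and none of the 6 members had an unadjusted p under 0.05 there in edgeR, DESeq2 or the replicate block.

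**Figure D3:**
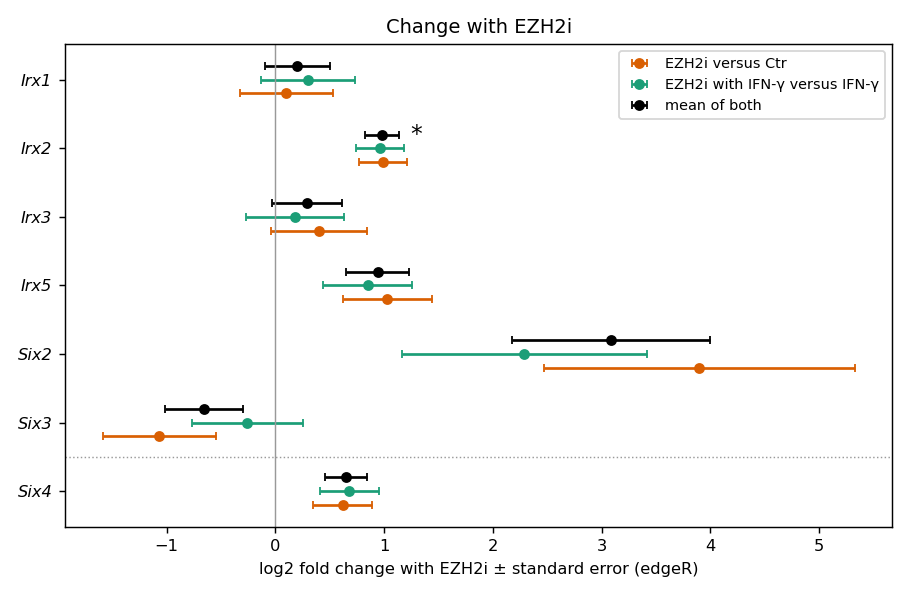
Log2 fold change with EZH2i ± standard error (x axis) from edgeR for the 6 members that passed the low-count filter and, under the dotted line, for the related gene Six4 (y axis), in EZH2i versus Ctr, in IFN-γ with EZH2i versus IFN-γ, and as the mean of both. Asterisks mark an adjusted p under 0.05, which Irx2 (0.98) reaches for the mean.

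IFN-γ for 6 h moved none of the 6 tested genes past the threshold in the group-only edgeR fit, which called 8.75% of all genes in IFN-γ versus Ctr and 8.07% in IFN-γ with EZH2i versus EZH2i. At an unadjusted p under 0.05 the count was also 0, and it was 0 with DESeq2, which called 11.5% and 11.1% of all genes. Irx2 changed least, by 0.02 (SE 0.22) and -0.01 (SE 0.22). Irx1 was lower in every same-numbered pair: from 38.9 to 29.3, 20.2 to 16.8 and 19.1 to 11.2 CPM between EZH2i and IFN-γ with EZH2i. With the replicate number as a block, Irx1 fell by 0.47 (SE 0.13) and Irx3 fell by 0.73 (SE 0.20) on the log2 scale in that comparison, with adjusted p = 0.0203 and 0.0201 in edgeR. That blocked fit called 19.3% of all genes. Irx3 also went down in every pair, from 8.33 to 5.90, 4.38 to 2.58 and 4.74 to 2.46 CPM. In IFN-γ versus Ctr the block gave -0.69 (SE 0.13) for Irx1 with adjusted p = 0.00199 in edgeR and called 21.2% of all genes, but there the numbers do not clearly pair the libraries.

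The genes around the members were counted within 250000 bases. Of 73 such neighbours, 40 had 3 counts or fewer in every library and 21 were tested. Their median mean effect was 0.05, beside -0.001 for all genes, and 13 of 21 were fitted higher. Of the 21, 1 was called, beside 2.22% of all genes: Crnde, a long non-coding RNA whose start lies 1505 bases from that of Irx5 on the opposite strand. It was at 0.957, 1.86 and 1.56 CPM in Ctr, 2.43, 2.08 and 2.06 in EZH2i, 1.01, 1.04 and 1.34 in IFN-γ and 2.22, 2.46 and 2.63 in IFN-γ with EZH2i. As with Irx2, the 6 libraries with EZH2i were above the 6 without. The mean effect was 0.85 (SE 0.19) with adjusted p = 0.0406 in the group-only edgeR fit, and this call is narrow: it was kept in 1 of the 12 fits that left out a library, with edgeR adjusted p up to 0.105. Crnde also passed with DESeq2 (adjusted p = 0.000479) and with the replicate block in edgeR (adjusted p = 0.00665), which called 4.61% and 12.2% of all genes. Gm20554, which starts 256 bases from Irx2 on the opposite strand, had a mean effect of 0.71 (SE 0.27, edgeR adjusted p = 0.277). Fto, the large gene beside Irx3 whose introns are known for long-range contacts with the IrxB genes, had -0.20 (SE 0.09, edgeR adjusted p = 0.420).

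**Figure D4:**
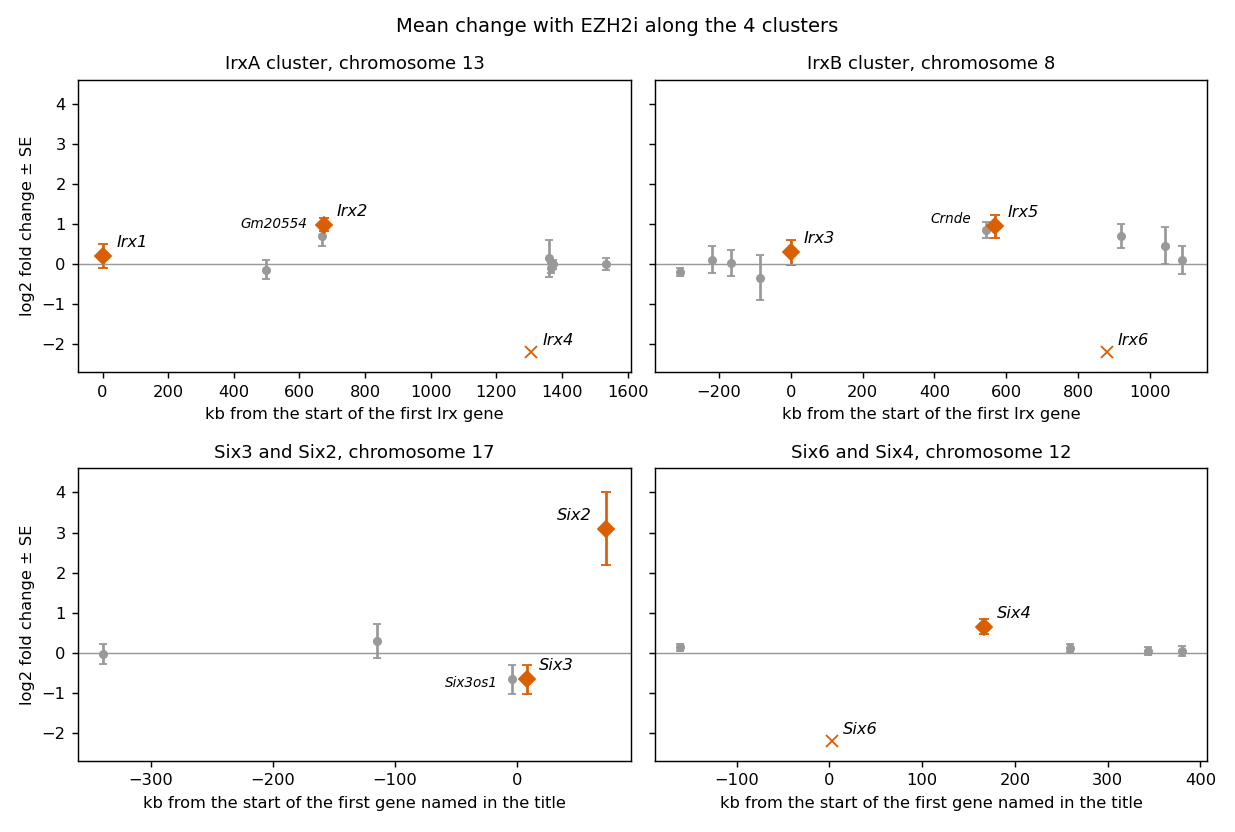
Mean log2 fold change with EZH2i ± standard error (y axis) against position in kb along the 4 clusters (x axis), for genes of the Irx and sine oculis families (orange diamonds) and other tested genes within 250000 bases (grey circles). Crosses give the place of Irx4, Irx6 and Six6, which were not tested and have no value on the y axis. Irx2 and Irx5 lie above 0 beside Gm20554 and Crnde, and Six2 (3.09) is the highest point.

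Of relatives outside the set, Six4 had a mean EZH2i effect of 0.65 (SE 0.19, edgeR adjusted p = 0.131). It was at 8.69, 6.15 and 6.16 CPM in Ctr and at 15.3, 9.15 and 7.98 CPM in EZH2i. With IFN-γ it was at 6.12 ± 1.31 CPM without EZH2i and at 9.83 ± 1.89 CPM with it (SD, n = 3 each). The groups overlapped without IFN-γ, whereas with IFN-γ all libraries with EZH2i were above all without it. Mkx, a homeobox gene related to Irx, had 0.53 (SE 0.18, edgeR adjusted p = 0.195) and Six5 -0.48 (SE 0.31, edgeR adjusted p = 0.614). With the replicate block the edgeR adjusted p was 0.000746 for Six4 and 0.00252 for Mkx, so both passed there, and the DESeq2 adjusted p was 0.0369 for Six4. The block called 12.2% of all genes for this effect and DESeq2 4.61%.

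The sine oculis homeobox proteins act with Eya coactivators and Dach corepressors. Of the 6 genes Eya1 to Eya4, Dach1 and Dach2, 5 were fitted higher for the mean EZH2i effect. In the group-only edgeR test 0 passed and 4 had an unadjusted p under 0.05. DESeq2 called Eya4 and Dach1 (adjusted p = 0.00145 and 0.0352), and edgeR with the replicate block called Eya4, Eya1 and Dach1. For this effect the group-only edgeR fit called 2.22% of all genes, DESeq2 4.61% and the block 12.2%. The share of all genes with an unadjusted p under 0.05 for this effect was not taken. Eya4 had 0.89 (SE 0.21) with adjusted p = 0.0502 in the group-only edgeR fit and passed in 6 of 17 alternatives. Eya4 responded to IFN-γ: it was at 2.02, 3.56 and 3.99 CPM in Ctr and at 11.8, 16.4 and 22.0 CPM in IFN-γ, and at 4.86, 5.45 and 6.82 CPM in EZH2i and 23.1, 37.5 and 36.0 CPM with both. The 6 libraries with IFN-γ were above the 6 without. The log2 fold changes were 2.39 (SE 0.31) and 2.49 (SE 0.30), with edgeR adjusted p = 0.000272 and 0.000167. Dach1 was called in IFN-γ with EZH2i versus EZH2i (1.15, SE 0.28, edgeR adjusted p = 0.0245), and this call was lost when any of 5 libraries was left out. In IFN-γ versus Ctr it had 0.82 (SE 0.29, edgeR adjusted p = 0.121, and 0.0237 with the block). Of the 6 Groucho-type corepressors Tle1 to Tle4, Tle6 and Aes, the group-only edgeR fit and DESeq2 called 0 for the mean EZH2i effect, and 2 had an unadjusted p under 0.05 in each. The replicate block called Tle2 as higher (0.60, edgeR adjusted p = 0.00348) and Tle4 as lower (-0.33, edgeR adjusted p = 0.0165). In IFN-γ versus Ctr, Tle1 rose by 0.50 and Tle6 and Tle2 fell by 1.57 and 1.42 on the log2 scale (edgeR adjusted p = 0.0388, 0.00749 and 0.0418). The same 3 genes were called in IFN-γ with EZH2i versus EZH2i. The group-only edgeR fit called 8.75% of all genes in the former comparison and 8.07% in the latter. In IFN-γ versus Ctr, the call of Tle1 was lost in 10 of the 12 fits without a library and that of Tle2 in 7 (edgeR adjusted p up to 0.148 and 0.145). In IFN-γ with EZH2i versus EZH2i, the call of Tle1 was lost in 3, of Tle2 in 5 and of Tle6 in 3 (edgeR adjusted p up to 0.068, 0.151 and 0.0628). Of the 6 core PRC2 genes the group-only edgeR fit and DESeq2 called 0 for the mean EZH2i effect, and 1 had an unadjusted p under 0.05 in each. Ezh2 itself, whose protein the compound inhibits, had a mean effect of -0.30 (SE 0.12, edgeR adjusted p = 0.284), and with the replicate block it was called as lower (-0.31, edgeR adjusted p = 0.0131).

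The genes whose pattern over the 12 libraries was most like that of Irx1, Irx5 or Six3, the member with the highest mean TPM in its cluster, were found among 12837 genes with a mean of at least 1 CPM. Mypop and Celf3 (r = 0.962 each) were among the nearest to Irx1. Begain (0.948), Ntn1 (0.941) and Tbx2 (0.937) were nearest to Irx5, and U2af1 (0.915), Ttc17 (0.914) and Banf1 (0.912) to Six3. These are Pearson correlations of log2 CPM that share libraries and scaling, given as a description. Tbx2, a T-box transcription factor, had a mean EZH2i effect of 2.22 and Ntn1, the secreted guidance cue netrin, of 0.37 (edgeR adjusted p = 0.0212 and 0.0420; without 1 library, Tbx2 was lost in 5 and Ntn1 in all 12 fits), whereas those named for Irx1 and Six3 lay between -0.24 and 0.22.

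Markers of other cell types moved with EZH2i in part. Of 5 neuronal markers, 3 were called higher for the mean EZH2i effect (Snap25 1.13, Syt1 0.96 and Stmn2 2.45, edgeR adjusted p = 0.00716, 0.0261 and 0.00268). Of all genes, the same fit called 2.03% as higher. The summed neuronal level was 34.8 to 48.0 CPM in Ctr and 49.5 to 85.8 in EZH2i, and 686 to 1280 in IFN-γ and 952 to 1650 with both, mostly from Tubb3. None of the 3 tested of 4 endothelial markers was called, but their sum, mostly Flt1, was 9.20 to 16.9 CPM in Ctr and 19.5 to 35.4 in EZH2i, and 8.26 to 16.5 in IFN-γ and 17.1 to 32.5 with both. Of 4 mural markers, Kcnj8 was called higher (2.06, edgeR adjusted p = 0.0140) and Acta2 had -0.61 (edgeR adjusted p = 0.544). The mural sum was 7.75 to 15.6 CPM in Ctr and 4.11 to 13.8 in EZH2i, and 15.1 to 23.2 in IFN-γ and 14.6 to 20.1 with both. The myelin gene Mbp was lower, at -0.93 (edgeR adjusted p = 0.0225). The Syt1, Kcnj8 and Mbp calls, unlike those of Snap25 and Stmn2, were each lost in 1 or more of the fits without a library. Summed astrocyte markers lay between 1140 and 2720 CPM. Summed microglial markers stayed at or under 1.59 CPM and meningeal fibroblast markers between 0.565 and 2.89 CPM. No tested marker of astrocytes, microglia, meningeal fibroblasts, ependyma and choroid plexus, or precursors of retina and hypothalamus was called, and no skeletal muscle precursor marker passed the low-count filter. The part of other cell types in the changes of Irx2, Irx5 and Six2 was not tested.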

How the data were processed

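Bulk RNA-seq of 12 mouse OPC libraries (4 groups, 3 replicates each) was analysed. Trimmed reads were quantified by the authors with Salmon 0.8.2. The deposited estimated counts are per transcript and unscaled, and the deposited TPM values are length-normalized and sum to a constant per library. Per the labels the builds are mm10 and GRCm38, and the kit is stranded. The strand setting of Salmon is not given in the sources used here. A further 2 tables of DESeq2 comparisons, made by the authors, were not used. They hold fold changes and p-values.

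Counts were summed per gene (GENCODE annotation of GRCm38, all 141862 transcripts matched) and rounded. The main test was edgeR 4.0.16 in R 4.3.3: TMM factors, the default low-count filter (18995 genes), group as the only term, quasi-likelihood test, Benjamini-Hochberg adjustment over all genes and a threshold of 0.05. Genes that failed the filter were tested with exact permutations over 400 arrangements. A group with 3 counts or fewer in every library was taken to be at the floor. Counting error alone sets that floor. TPM was compared between libraries only as an alternative, since 5 small RNA genes took 53.9% to 71.2% of it. Alternative fits used DESeq2 1.42.0, RLE factors, every gene unfiltered, 10 counts in every library, only the 6 libraries compared, the replicate block and each library left out. The scripts were tested on simulated data.

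Libraries with the same replicate number deviated together: those with both agents correlated with EZH2i at r = 0.530, 0.496 and 0.621 and with IFN-γ at 0.604, 0.493 and 0.642. In these 2 comparisons replicate numbers were read as pairs in the descriptions and in the replicate block. The main test, with group as the only term, does not use the pairing. Ctr correlated with EZH2i at 0.441, 0.0467 and 0.495 and with IFN-γ at 0.49, 0.0854 and 0.544, so only replicate 2 was low. In comparisons with Ctr the descriptions did not read the numbers as pairs. The replicate block is a fit over all 12 libraries and applies the numbers to Ctr as well. Its values for comparisons with Ctr and for the mean EZH2i effect therefore rest on a pairing that is not clear. The labels say only that replicates came from different litters.

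The text names the members by their symbols, related genes, Eya, Dach, Tle and PRC2 genes (values for Ezh2 alone), neighbours, markers of 11 cell types and, for 3 members, the 3 genes of most similar pattern. The members and lists were chosen with earlier results of these data known. Not every gene of these lists is reported here. Chromatin data were not analysed here.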

Additional observations from a re-analysis of the deposited data

How the results depend on the processing

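The rise of Irx2 in the mean EZH2i effect passed the threshold in all 17 alternatives (log2 fold change 0.85 to 1.05). Which other members pass depends on the test. DESeq2 called 1 member in EZH2i versus Ctr, 1 in IFN-γ with EZH2i versus IFN-γ and 3 for the mean (Irx2, Irx5 and Six2, the last having passed the low-count filter only through its high libraries), where the group-only edgeR fit called 0, 0 and 1. Over all genes DESeq2 called 1.74%, 1.48% and 4.61%, and edgeR 0.405%, 0.353% and 2.22%. The replicate block called 2, 1 and 3 members in these comparisons, and 1 in IFN-γ versus Ctr and 2 in IFN-γ with EZH2i versus EZH2i, where the group-only fit called 0. Over all genes, the block raised the count called from 77 to 771 in EZH2i versus Ctr, from 67 to 748 with IFN-γ and from 422 to 2317 for the mean. The cause of these differences was not tested. In comparisons with Ctr and for the mean, the block relies on replicate numbers that do not clearly pair the Ctr libraries. RLE factors, both other filters and fits of only the 6 libraries left the count of members called as it was, and Six2 could not be tested where 10 counts were required in every library. TPM in place of CPM reversed no ratio of the mean over the 6 libraries with EZH2i to that over the 6 without. In the libraries with IFN-γ, however, the mean of Irx1 went from 15.5 to 19.1 CPM with EZH2i but from 10.2 to 9.09 TPM, and for Irx3 EZH2i lay wholly above Ctr in TPM and not in CPM. Spearman in place of Pearson correlations reversed no value.

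With each library left out in turn, the count of members called stayed at 0 or, for the mean, 1. Uncalled members changed sign there: in EZH2i versus Ctr, Irx1 ranged from -0.31 to 0.41, and in IFN-γ with EZH2i versus IFN-γ, Irx1 from -0.15 to 0.78, Irx3 from -0.35 to 0.71 and Six3 from -0.69 to 0.10. For the mean EZH2i effect Irx1 ranged from -0.03 to 0.44. In IFN-γ versus Ctr, Irx2 ranged from -0.12 to 0.17, Irx5 from -0.23 to 0.34 and Six3 from -0.53 to 0.33. In IFN-γ with EZH2i versus EZH2i, Irx2 ranged from -0.26 to 0.14, Irx5 from -0.63 to 0.36 and Six2 from -1.01 to 0.92. The Irx4 difference ranged from 0.0433 to 0.129 CPM and the Six6 difference from -0.0083 to 0.0396 CPM. Without a Ctr library the exact permutation p of Irx4 was 0.125, which cannot be set directly against that over all 12 libraries. Genes at a few counts, such as Irx4, Irx6, Six6 and Six2, are limited by depth.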
